A study of Mus musculus with 7 samples.

Results

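The genes described here make nicotinamide adenine dinucleotide (NAD), convert it to its phosphorylated and reduced forms or consume it, and their transcripts were measured by RNA sequencing in mouse left ventricles. There were 10 genes, *Nampt*, *Nmrk1*, *Nmrk2*, *Nmnat1*, *Nmnat3*, *Naprt*, *Nadk*, *Nnt*, *Sirt3* and *Parp1*, of 20927 genes in the count table. They were chosen by gene name for their roles, with the log2 fold changes between A178D and WT in these same hearts already known, so that their differences are a description and not independent evidence. The study asked how a missense change in titin, the giant spring protein of the sarcomere, alters the heart. It compared 3 WT mice, numbered 1, 3 and 4, with 4 mice homozygous for titin A178D, numbered 1 to 4, and 1 library was made from the left ventricle of each. The mutation was introduced by CRISPR into C57BL/6N embryonic stem cells, the line was bred for several generations onto C57BL/6J from Envigo, which is the strain given for every heart, and no treatment is named. Age and sex are not given in the labels for these hearts, and all 7 libraries held counts of the Y-linked genes *Ddx3y*, *Kdm5d*, *Uty* and *Eif2s3y*. The WT libraries held 51797208, 54245530 and 41102868 counts, and the A178D libraries held 40623300, 52345529, 42174448 and 33080675. Levels are given as CPM, which are counts per 1e6 counts after scaling of the library sizes by TMM, and gene positions refer to GRCm38 in GENCODE M21.

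NAD carries electrons from fuel oxidation to the respiratory chain and is also split as a substrate by sirtuins and by enzymes that transfer ADP-ribose, so that it has to be rebuilt continuously. Most tissues rebuild it from nicotinamide through Nampt, and smaller routes start from nicotinamide riboside, nicotinic acid or tryptophan. The heart, which beats on mitochondrial oxidation, holds a large NAD pool, and the phosphorylated form NADPH supplies its antioxidant systems.

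Some libraries stood apart from the others before any comparison was made. In WT replicate 3, *Mmrn1*, which encodes multimerin of vessel walls and platelets, had 2 counts, where the other 6 hearts had 164 to 374. The reason was not tested, and the labels give C57BL/6J for all mice. For the 10 NAD genes, log2 fold changes are therefore also given without this heart. The trend of counts with transcript length also differed. From 1 kb to 5 kb it came to 0.205 on the log2 scale in WT replicate 1 and to -0.242 in A178D replicate 4, and it ran from -0.079 to 0.054 in the remaining 5 libraries. Among counts of 1 to 20, 17.6 to 20.3% were odd, so that both ends of most fragments appear to have been counted, and a low count stood for fewer molecules than its value.

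The clearest difference among the 10 genes was a lower level of *Nampt* in A178D hearts. Of the 10 genes, all of which passed the filter of at least 10 counts in at least 3 libraries, 1 was called at an adjusted p under 0.05 (quasi-likelihood test of edgeR, Benjamini-Hochberg adjustment), against 2.35% of the 13894 genes tested. The hearts of the genotypes did not overlap for 2 of the 10, *Nampt* and *Nnt*, against 16.1% of all genes tested. Since the choice of the genes was not independent of this comparison, nothing is read from these counts. The median log2 fold change of the 10 genes was -0.01, and it was 0.00 over all genes tested. Among all genes tested, 145 were higher and 182 lower in A178D. Without WT replicate 3 these numbers were 22 and 31, and *Nampt* was still called. Without WT replicate 4 they were 40 and 42, without A178D replicate 1 they were 40 and 50, without A178D replicate 3 they were 78 and 112, and without A178D replicate 2 the number lower was 115. *Nampt* was called in each of these fits too.

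**Figure D1:**
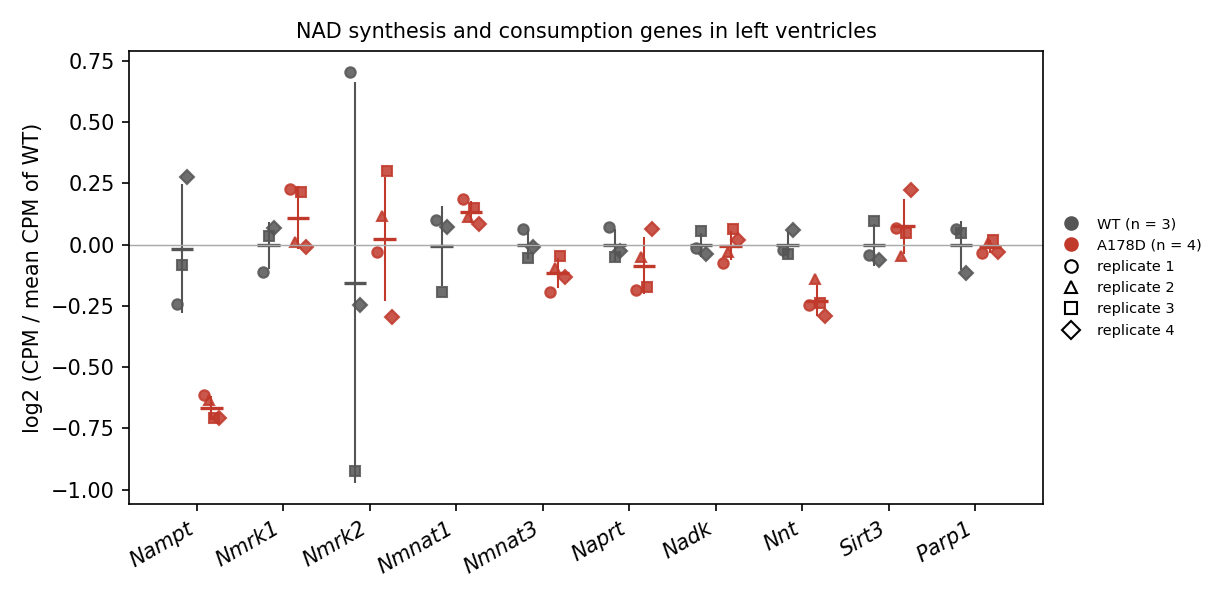
Level of the 10 NAD genes in each left ventricle, as log2 of CPM over the mean CPM of WT hearts (grey, n = 3; red, A178D, n = 4). Symbols give the replicate number, horizontal lines the mean and vertical lines 1 SD of the log2 values. The A178D hearts lie below all WT hearts for *Nampt* and *Nnt*, and WT replicates 1 and 3 lie at the ends of the range for *Nmrk2*.

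*Nampt* (ENSMUSG00000020572, chromosome 12, 32819545 to 32853349, plus strand) encodes nicotinamide phosphoribosyltransferase, the rate-limiting enzyme that turns nicotinamide into nicotinamide mononucleotide. Its level was 351.6, 392.3 and 503 CPM in WT replicates 1, 3 and 4, and 271.4, 267.6, 254.2 and 254.6 CPM in A178D replicates 1 to 4. The A178D hearts lay close together and below each WT heart, and the WT hearts were spread more widely, with replicate 4 the highest. The mean was 415.6 ± 78.4 CPM (SD, n = 3) in WT and 261.9 ± 8.87 CPM (SD, n = 4) in A178D. *Nampt* was at 0.63 of its WT level, a log2 fold change of -0.67 (standard error 0.10), and its adjusted p was 0.00564 (quasi-likelihood test of edgeR, Benjamini-Hochberg adjustment over all genes tested). By size it ranked 46 among the 182 genes called lower. Without WT replicate 3 the log2 fold change was -0.71, with an edgeR adjusted p of 0.0259, the highest over all alternatives. The lowest adjusted p was 0.000382 with edgeR and 6.5e-08 with DESeq2, and the ranges of adjusted p given for other genes span all tools too. Without WT replicate 4, the highest heart, it was -0.51. In whole ventricle, fewer cells of a type that expresses a gene and less of its RNA per cell cannot be told apart.

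The nicotinamide riboside kinases feed the same intermediate from another precursor. *Nmrk2* (chromosome 10, 81198170 to 81202051), the form found mainly in striated muscle, was the most variable of the 10 genes. It stood at 22.3, 7.19 and 11.5 CPM in WT replicates 1, 3 and 4, and at 13.4, 14.8, 16.8 and 11.1 CPM in A178D replicates 1 to 4. WT replicates 1 and 3 were the highest and lowest of the 7 hearts, so that the A178D hearts lay inside the WT range. The log2 fold change of 0.04 had a standard error of 0.27 and a 95% interval from -0.54 to 0.62. Its sign depended on single hearts, since the value was 0.60 on leaving out WT replicate 1, -0.27 for WT replicate 3, -0.07 for WT replicate 4 and -0.06 for A178D replicate 3. *Nmrk1* (chromosome 19, 18631950 to 18652428), the more widely expressed kinase, had 160 to 278 counts per library. Its level was 4.60 to 5.22 CPM in WT and 4.94 to 5.82 CPM in A178D hearts, which overlapped, and the log2 fold change was 0.12 with an interval from -0.18 to 0.41. Leaving out WT replicate 3 gave 0.14, WT replicate 1 gave 0.07 and A178D replicate 1 gave 0.08.

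*Naprt* (chromosome 15, 75890956 to 75894481) encodes the enzyme that starts NAD synthesis from nicotinic acid. It was at 20.05 to 21.8 CPM in WT and 18.2 to 21.7 CPM in A178D hearts, and the log2 fold change of -0.08 had an interval from -0.28 to 0.11. It was -0.11 without WT replicate 3, and leaving out other hearts moved it between -0.04 (WT replicate 1) and -0.13 (A178D replicate 4), with -0.05 for A178D replicates 1 and 3. With offsets for transcript length and GC content in edgeR, *Naprt* was at -0.15. The adenylyl transferases of the last shared step, *Nmnat1* of the nucleus (chromosome 4, 149467572 to 149485202) and *Nmnat3*, which is assigned to mitochondria (chromosome 9, 98287435 to 98420438), also overlapped between the genotypes. *Nmnat1* was at 9.52 to 11.7 CPM in WT and 11.5 to 12.4 CPM in A178D hearts, a log2 fold change of 0.13 with an interval from -0.09 to 0.36. WT replicate 3 alone was low, and without it the value was 0.05. *Nmnat3* was at 29.8 to 32.3 CPM in WT and 27.0 to 29.9 CPM in A178D hearts, a log2 fold change of -0.12 with an interval from -0.28 to 0.05, and it was -0.14 without WT replicate 3. None of these 3 intervals reached the fall of *Nampt*, and differences inside the intervals were not resolved with 3 and 4 hearts.

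*Nnt* (ENSMUSG00000025453, chromosome 13, 119335448 to 119408997, minus strand) encodes the transhydrogenase of the inner mitochondrial membrane, which uses the proton gradient to make NADPH from NADH. Its level was 1689, 1672 and 1790 CPM in WT replicates 1, 3 and 4, and 1449, 1558, 1455 and 1403 CPM in A178D replicates 1 to 4. Each A178D heart was below each WT heart, by a margin that was small against the level. The mean was 1717 ± 63.4 CPM (SD, n = 3) in WT and 1466 ± 65.3 CPM (SD, n = 4) in A178D. The log2 fold change of *Nnt* was -0.23 (standard error 0.06), and an adjusted p of 0.0826 (quasi-likelihood test of edgeR, Benjamini-Hochberg adjustment) did not pass the threshold. It passed with DESeq2 (adjusted p = 0.0179) and with offsets for transcript length and GC content in edgeR (0.0271), within a range of 0.0179 to 0.255 over the alternatives. Without WT replicate 3 the log2 fold change was -0.25. *Nnt* was abundant in all 7 hearts, and counts per gene do not show which exons were present, so the allele of each mouse was not tested.

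*Nadk* (chromosome 4, 155562378 to 155591001), the cytosolic kinase that phosphorylates NAD to NADP, differed little between hearts. It was at 43.9 to 46.8 CPM in WT and 42.9 to 47.2 CPM in A178D hearts. Its log2 fold change of -0.00 had an interval from -0.16 to 0.15, and it turned to 0.02 without WT replicate 3 or A178D replicate 1 and to 0.01 without A178D replicate 2. The consumers were similar in this respect. *Sirt3* (chromosome 7, 140863666 to 140882309), the main deacetylase of the mitochondrial matrix, was at 47.0 to 52.5 CPM in WT and 47.5 to 57.3 CPM in A178D hearts, a log2 fold change of 0.08 with an interval from -0.10 to 0.25. Leaving out WT replicate 3 gave 0.13, A178D replicate 2 gave 0.12, WT replicate 4 gave 0.05 and A178D replicate 4 gave 0.02. *Parp1* (chromosome 1, 180568924 to 180601254), the nuclear polymerase that builds chains of ADP-ribose at DNA breaks, was at 78.4 to 88.8 CPM in WT and 83.2 to 86.3 CPM in A178D hearts. Its log2 fold change was -0.01 with an interval from -0.16 to 0.14, and it ran from -0.06 without WT replicate 4 to 0.03 without WT replicate 1, with 0.02 without WT replicate 3. For *Nadk*, *Sirt3* and *Parp1* the genotypes overlapped, and none was called under any alternative tried.

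Levels of different genes were compared per 1000 bases of merged exons, as the mean of the 7 hearts. *Nnt* was highest with 223.6 ± 20.8 CPM per 1000 bases (SD, n = 7), followed by *Nampt* with 64.9 ± 18.6, *Parp1* with 16.0 ± 0.66 and *Nadk* with 12.02 ± 0.42 on the same scale. The ranges over hearts of these 4 genes did not overlap. The next levels per 1000 bases were *Naprt* with 8.57, *Sirt3* with 8.48, *Nmrk2* with 7.48 and *Nmnat3* with 5.90, and each overlapped its neighbour in this order. *Nmnat1* followed with 3.78 and *Nmrk1* was lowest with 1.41 CPM per 1000 bases. With the longest transcript as the length, *Nnt*, *Nampt* and *Parp1* kept places 1 to 3 and *Nmnat1* and *Nmrk1* places 9 and 10, while *Sirt3* moved to place 4 and *Nmnat3* to place 6. The order of the middle genes thus depended on which transcripts are used, which counts per gene do not show.

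A further 85 genes of NAD metabolism were read in 7 lists by role, chosen with earlier results of these data known, and 78 were tested. Of these, 2 were called higher in A178D (*Adprhl1* and *Gpd1*) and 1 lower (*Noct*), beside 2.35% of all genes tested. Log2 fold changes were above 0 for 45 genes and below for 33. The median was 0.04, beside 0.00 over all genes tested, and 10 of the 78 had an unadjusted p under 0.05, beside 2326 of all 13894. DESeq2 called 4 of these genes, the fourth being *Sirt1*, and limma-voom called 3. The 3 calls were lost in fits with fewer hearts, and the values in these fits are given with each gene. Without WT replicate 3 or without WT replicate 4, edgeR called 0 of the genes, with 7 and 6 at an unadjusted p under 0.05, and without A178D replicate 1 it called 1.

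**Figure D2:**
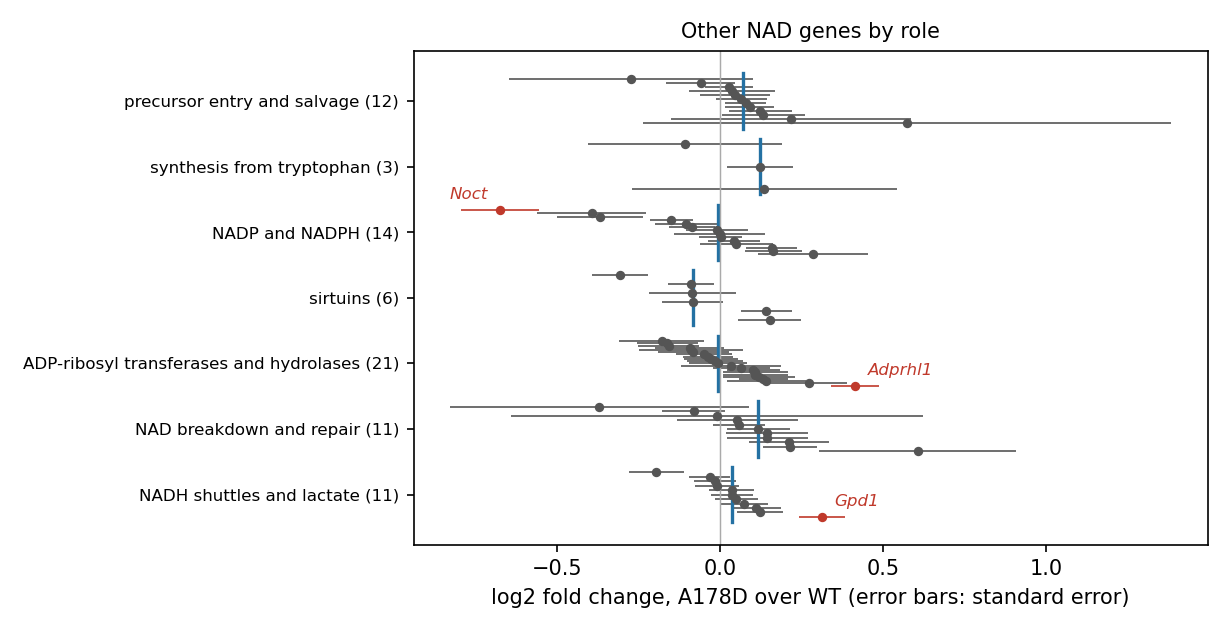
Log2 fold change of A178D over WT for each tested gene of the 7 other NAD lists, with the number tested in parentheses. Points are single genes with their standard error, red marks genes called by edgeR at an adjusted p under 0.05, and blue lines are list medians. The medians lie between -0.09 (sirtuins) and 0.12 (synthesis from tryptophan), and *Noct*, *Adprhl1* and *Gpd1* are the called genes.

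Precursor entry and salvage held 12 tested genes of 13, among them nucleotidases, nucleoside transporters and the mitochondrial NAD carrier. EdgeR, DESeq2 and limma-voom called 0 of them, and 0 had an unadjusted p under 0.05 by any of these tools. *Slc29a1*, a nucleoside transporter and the most abundant of the list per length, was at 87.3 to 97.0 CPM in WT and 86.8 to 100 CPM in A178D hearts (log2 fold change 0.03, and -0.01 without A178D replicate 4 to 0.07 without WT replicate 3). *Nt5e*, which removes phosphate from extracellular nucleotides and had the lowest p of the list, had a log2 fold change of 0.12, which was 0.20 without WT replicate 3 and 0.08 without WT replicate 4. Of the 9 genes for synthesis from tryptophan, 3 were tested, and edgeR, DESeq2 and limma-voom called 0, with 0, 1 and 0 at an unadjusted p under 0.05. The gene found by DESeq2 did not pass the edgeR filter and had 4, 12 and 4 counts in WT replicates 1, 3 and 4 and 0 in each A178D heart. *Afmid*, the formamidase and the most abundant gene of the list, was at 10.3 to 12.04 CPM over all hearts (log2 fold change 0.12). The ventricles thus held little RNA for most of the route from tryptophan at this depth.

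The list of NADP and NADPH genes held 14 tested genes, with a median log2 fold change of -0.01, 4 at an unadjusted p under 0.05 and 1 called. *Noct* (chromosome 3, 51224447 to 51251644), which encodes nocturnin, a rhythmically expressed phosphatase of NADP and NADPH, was at 40.6, 46.2 and 52.7 CPM in WT replicates 1, 3 and 4. In A178D replicates 1 to 4 it was at 24.3, 26.1, 32.0 and 34.1 CPM, so that each A178D heart was below each WT heart. It fell by 0.68 on the log2 scale (standard error 0.12, edgeR adjusted p = 0.0121). The call was lost on leaving out WT replicate 3 (log2 fold change -0.68, edgeR adjusted p = 0.0714) or WT replicate 4 (-0.58, 0.0805) and with the length and GC offsets (-0.55, 0.0824), within a range of 1.9e-05 to 0.0824. *Idh2*, the mitochondrial isocitrate dehydrogenase that makes NADPH, was the most abundant of the list per length. It was at 2686 to 2932 CPM in WT and 2668 to 3047 CPM in A178D hearts, with a log2 fold change of 0.00 and an interval from -0.14 to 0.14, and it lay between -0.04 and 0.03 without single hearts.

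Among the 6 other sirtuins, which remove acyl groups from proteins at the expense of NAD, edgeR called 0 with 1 at an unadjusted p under 0.05, limma-voom called 0 and DESeq2 called 1. That gene was *Sirt1*, a nuclear deacetylase. It was at 19.98, 20.12 and 18.98 CPM in WT replicates 1, 3 and 4 and at 16.5, 15.4, 16.5 and 15.3 CPM in A178D replicates 1 to 4. The genotypes did not overlap, and the log2 fold change was -0.31 (standard error 0.09, edgeR adjusted p = 0.0823). DESeq2 gave an adjusted p of 0.0342, within a range of 0.0342 to 0.258 over the alternatives, and without WT replicate 3 the log2 fold change was -0.29. *Sirt2*, the cytosolic and most abundant of them per length, overlapped between the genotypes (log2 fold change -0.09, -0.05 without A178D replicate 3 and -0.14 with the length and GC offsets).

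The list of ADP-ribosyl transferases and hydrolases held 21 tested genes with a median log2 fold change of -0.01, 2 at an unadjusted p under 0.05 and 1 called. *Adprhl1* (chromosome 8, 13221663 to 13254162), a heart-enriched member of the ADP-ribosylhydrolase family, was at 554, 568.9 and 536.5 CPM in WT replicates 1, 3 and 4. It was at 760.9, 710.8, 672.6 and 801.2 CPM in A178D replicates 1 to 4, each above each WT heart. It rose by 0.41 on the log2 scale (standard error 0.07, edgeR adjusted p = 0.0115). The call was lost on leaving out WT replicate 3 (log2 fold change 0.43, edgeR adjusted p = 0.0592), WT replicate 4 (0.39, 0.0657) or A178D replicate 1 (0.40, 0.054), so that the size moved little, within a range of 8.1e-06 to 0.0657. *Macrod1*, a mitochondrial hydrolase of ADP-ribose derivatives and the most abundant of the list per length, had a log2 fold change of -0.05. Leaving out single hearts moved it between -0.01 (A178D replicate 3) and -0.13 (A178D replicate 4), and the offsets gave -0.14. The list of NAD breakdown and repair held 11 tested genes, and edgeR, DESeq2 and limma-voom called 0, with 1 at an unadjusted p under 0.05 by each. This gene was *Nudt13*, named for an NADH pyrophosphatase, at 27.9 to 33.7 CPM in WT and 34.1 to 37.1 CPM in A178D hearts (log2 fold change 0.21, edgeR adjusted p = 0.215). *Naxe*, which repairs damaged NADH, was the most abundant per length, with a log2 fold change of 0.06 that lay between 0.00 (without A178D replicate 4) and 0.11 (without A178D replicate 3) and was -0.07 with the offsets.

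NADH made in the cytosol reaches the respiratory chain through shuttles, and 11 genes of these and of lactate metabolism were tested, with a median log2 fold change of 0.04, 2 at an unadjusted p under 0.05 and 1 called. *Gpd1* (chromosome 15, 99717515 to 99725005), the cytosolic enzyme of the glycerol phosphate shuttle, was at 94.7, 83.0 and 88.2 CPM in WT replicates 1, 3 and 4. It was at 111.3, 103.8, 112.4 and 112.2 CPM in A178D replicates 1 to 4, each above each WT heart. It rose by 0.31 on the log2 scale (standard error 0.07, edgeR adjusted p = 0.0359). The call was kept without WT replicate 1 and without A178D replicate 4 and lost without each of the other 5 hearts, with an edgeR adjusted p of 0.195 and 0.124 for WT replicates 3 and 4 and of 0.115, 0.0534 and 0.094 for A178D replicates 1, 2 and 3, within a range of 0.00237 to 0.195. The log2 fold change in these fits was 0.27 to 0.34. *Mdh1*, the cytosolic malate dehydrogenase and the most abundant of the list per length, had a log2 fold change of 0.07, which moved to 0.02 without WT replicate 1 and to 0.12 without WT replicate 4.

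*Nampt* and *Noct* are known to cycle over the day in many tissues, and clock genes were therefore read beside them. Of 16 clock genes, all tested, 1 was called higher and 5 lower in A178D, beside 2.35% of all genes tested that were called. The genotypes did not overlap for 9 of the 16, beside 16.1% of all genes, and the median log2 fold change was -0.25, beside 0.00. Since this list was chosen with earlier results of these data known, nothing is read from these counts. DESeq2 called 7 of the 16 and limma-voom 6. *Arntl*, which encodes the activator Bmal1, was at 2.44, 1.10 and 1.33 CPM in WT replicates 1, 3 and 4 and at 8.70, 5.24, 4.15 and 4.14 CPM in A178D replicates 1 to 4. *Per2*, a repressor in the same loop, was at 43.3, 61.3 and 61.1 CPM in WT and 24.0, 27.9, 33.5 and 35.0 CPM in A178D hearts in that order. The genotypes overlapped for neither gene. Among the WT hearts, replicate 1 had the lowest *Nampt*, *Noct* and *Per2* and the highest *Arntl*. Among the A178D hearts, replicate 1 also had the lowest *Noct* and *Per2* and the highest *Arntl*, but its *Nampt* was the highest of the 4.

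The log2 fold change was 1.77 for *Arntl* (standard error 0.31, edgeR adjusted p = 0.0115) and -0.88 for *Per2* (0.14, 0.0062). Without WT replicate 3 the calls were lost, at 1.54 (edgeR adjusted p = 0.0823, within 8.2e-07 to 0.0823) and -0.79 (0.0525, within 2.1e-07 to 0.0525), and without WT replicate 4 *Arntl* was at 1.66 (0.0761). The other genes called lower were *Cry1* (-0.51), *Per3* (-0.47), *Hlf* (-0.42) and *Tef* (-0.39). Each of these 4 calls was lost, in this order, on leaving out WT replicate 3 (edgeR adjusted p = 0.187, 0.089, 0.116 and 0.089), WT replicate 4 (0.129, 0.0937, 0.149 and 0.0873) or A178D replicate 1 (0.112, 0.0555, 0.0907 and 0.0574), and that of *Cry1* also without A178D replicate 3 (0.0899). Their log2 fold changes in these fits were -0.49 to -0.34. *Nr1d1* was at 178.2, 115.5 and 108.1 CPM in WT and 174.6 to 198.7 CPM in A178D hearts, a log2 fold change of 0.51 (edgeR adjusted p = 0.0717) that was called without WT replicate 1 (0.77, 0.000207), with no filter (0.50, 0.033) and with the replicate block (0.52, 0.0175). *Dbp* was at 118.8 to 128.2 CPM in WT and 88.1 to 154.8 CPM in A178D hearts, with a log2 fold change of 0.00 that lay between -0.12 (without A178D replicate 4) and 0.13 (without A178D replicate 1). The hour at which each heart was taken is not given in the labels, and the part of clock phase in the *Nampt* and *Noct* differences was not tested.

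**Figure D3:**
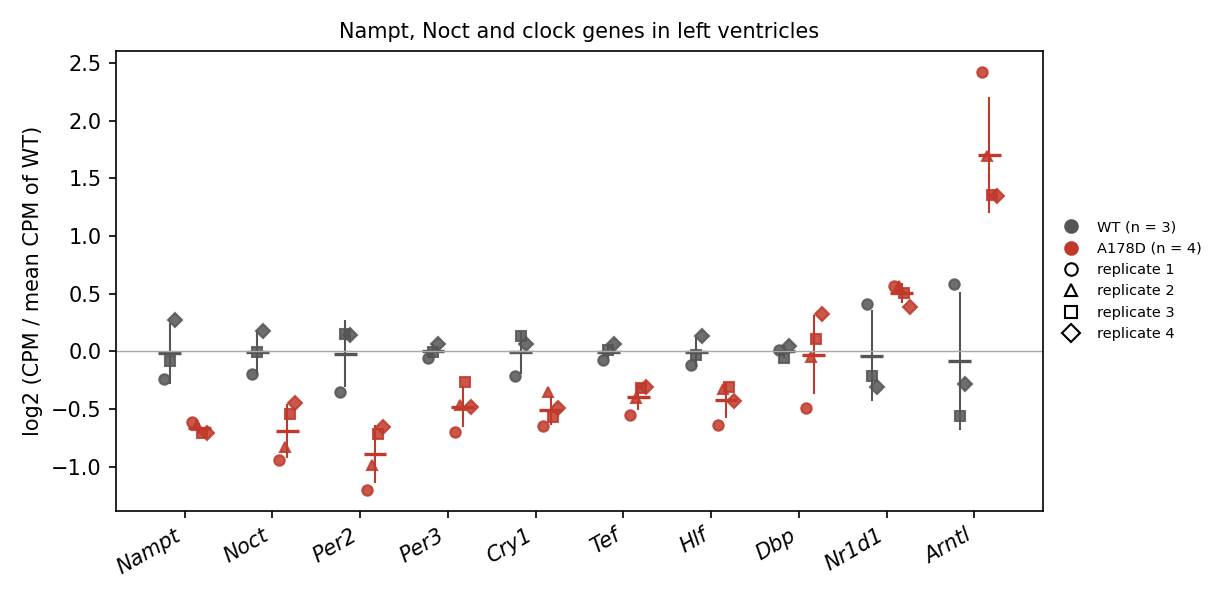
Level of *Nampt*, *Noct* and 8 clock genes in each left ventricle, as log2 of CPM over the mean CPM of WT hearts (grey, n = 3; red, A178D, n = 4). Symbols give the replicate number, horizontal lines the mean and vertical lines 1 SD of the log2 values. *Nampt*, *Noct*, *Per2*, *Per3*, *Cry1*, *Tef* and *Hlf* are lower and *Arntl* higher in every A178D heart than in every WT heart, and *Dbp* and *Nr1d1* overlap.

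The start of *Nampt* is shown because this gene was called lower together with clock genes, whose activators bind the E-box CACGTG. RefSeq windows of 300 bases around gene starts (GRCm38.p6) were found for 8 of the 10 NAD genes, and not listed there were *Naprt* and *Nnt*, nor the called genes *Gpd1* and *Per2*. The letters CACGTG, which read alike on both strands, were in 7.15% of all 32851 windows. That share is per window, while *Nmnat1*, *Nadk*, *Sirt3*, *Arntl* and *Tef* had 2 windows each. The letters were in a window of *Parp1* and *Nadk*, which were not called, of *Adprhl1* and *Cry1*, and in both windows of *Tef*. They were not in those of *Nampt*, *Nmrk1*, *Nmrk2*, *Nmnat1*, *Nmnat3*, *Sirt3*, *Noct*, *Arntl*, *Per3* or *Hlf*. A match describes letters only, and no match says only that they are not in this window. The first run gives the 250 bases before the RefSeq start of *Nampt* (chr12:32820085-32820334, plus strand), which lie inside a *Nampt* transcript and outside its exons in GENCODE M21. The others give 30 bases with CACGTG in capitals, 5′ to 3′ on the strand of the gene, and those of *Tef* are not printed.
Nampt: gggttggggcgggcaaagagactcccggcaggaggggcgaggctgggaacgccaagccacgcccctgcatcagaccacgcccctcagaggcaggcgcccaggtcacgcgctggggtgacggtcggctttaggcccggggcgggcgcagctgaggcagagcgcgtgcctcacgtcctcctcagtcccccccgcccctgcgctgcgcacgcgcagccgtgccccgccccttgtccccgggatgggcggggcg
Parp1, chr1:180568830-180568859, plus strand, outside transcripts: acctcccaaggaCACGTGctgaagccccgc
Nadk, chr4:155563763-155563792, the later of 2 starts, plus strand, in a UTR: cgccgctctcccCACGTGccctgcagcgca
Cry1, chr10:85185097-85185126, minus strand, outside transcripts: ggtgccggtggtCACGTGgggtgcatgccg
Adprhl1, chr8:13254194-13254223, minus strand, outside transcripts: ccaaacagctccCACGTGgtgagctctgag

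Marker genes of cell types were read beside the NAD genes, since a whole ventricle mixes cell types. The counts of called markers stand beside 2.35% called of all genes tested. These lists too were chosen with earlier results of these data known, so the counts are a description only. Cardiomyocyte markers summed to 104700, 110700 and 109400 CPM in WT replicates 1, 3 and 4 and 106500, 106200, 104300 and 114600 CPM in A178D replicates 1 to 4, led per length by *Actc1*. Of these 10 markers 1 was called, *Mybpc3* (log2 fold change 0.30), and 0 were called by edgeR without WT replicate 3 or WT replicate 4, with 1 at an unadjusted p under 0.05 in each fit. The *Mybpc3* call was also lost without A178D replicate 1 and without A178D replicate 3 (edgeR adjusted p = 0.0872 and 0.051), and the log2 fold change in these 4 fits was 0.26 to 0.32. The smooth muscle markers had the most calls, with 6 of 7 called lower (*Acta2*, *Myh11*, *Tagln*, *Mylk*, *Lmod1* and *Cnn1*) and the seventh at -0.20. They summed to 707.8, 700 and 657.7 CPM in WT and 428.2, 510.4, 530.3 and 518.9 CPM in A178D hearts, a ratio of 0.722, led per length by *Acta2* (-0.59). All 6 calls were made by DESeq2 and limma-voom too. Only *Acta2* and *Tagln* kept theirs on leaving out WT replicate 3 or WT replicate 4. *Myh11* (log2 fold change -0.67) was at -0.73 (edgeR adjusted p = 0.0501) and -0.71 (0.0547) in these fits and was called in all others. The other 3 lost their calls in further fits too. On leaving out WT replicate 3, *Cnn1* went from -0.82 to -0.96 (0.0604), *Lmod1* from -0.70 to -0.79 (0.0895) and *Mylk* from -0.49 to -0.55 (0.0835), while leaving out WT replicate 1 gave -0.63, -0.60 and -0.38 (0.109, 0.103 and 0.0904). Over all alternatives their highest edgeR adjusted p were 0.109, 0.142 and 0.111. None of the 7 was at 0 in any heart. The part of this difference in the lower *Nampt* was not tested.

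Fibroblast markers summed to 1131 to 1253 CPM in WT and 1323 to 1466 CPM in A178D hearts, with 1 of 8 called by edgeR, *Col3a1* (log2 fold change 0.62), and *Dcn* the most abundant per length. DESeq2 called 2 and limma-voom 1, 4 had an unadjusted p under 0.05 by edgeR, and 7 of the 8 log2 fold changes were above 0. The *Col3a1* call was lost without WT replicate 3 (edgeR adjusted p = 0.113) and without A178D replicates 1, 2 or 3 (0.084, 0.0672 and 0.0712), with a log2 fold change of 0.60 to 0.67 in these fits. The endothelial sum was 1705 to 1789 CPM in WT and 1719 to 1911 CPM in A178D hearts, led by *Fabp4*, and the macrophage sum was 229.6 to 304 and 274.5 to 316 CPM, led by *C1qa*. EdgeR and limma-voom called 0 of the 10 endothelial and 0 of the 10 macrophage genes, with 0 and 4 at an unadjusted p under 0.05 by edgeR, and DESeq2 called 0 and 1. The erythrocyte sum was 112.1 to 121.9 CPM in WT and 100.2 to 165.7 CPM in A178D hearts, with *Hba-a2* the highest single entry per length. Markers of tissue that could be carried along were low in every heart. Skeletal muscle markers summed to 3.90 to 5.65 CPM over the 7 hearts, led by *Tnni2*, and adipocyte markers to 0.273 to 1.65 CPM, led by *Cfd*. Atrial markers summed to 1.89 to 2.06 CPM in WT and 2.22 to 4.21 CPM in A178D hearts, without overlap and with a ratio of 1.55. Only 1 of the 4 was tested, *Myl4* (log2 fold change 0.65, edgeR adjusted p = 0.171, range 0.116 to 0.405). *Myl4* made up nearly all of the sum, with a mean of 1.88 CPM in WT and 2.95 CPM in A178D hearts. The others had at most 8 counts in any heart, and 1 of the 4 was at 0 counts in all hearts. The atrial difference thus rested on 1 gene, and a difference in atrial tissue was not tested.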

How the data were processed

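RNA from 3 WT and 4 homozygous A178D left ventricles was sequenced from both ends as stranded poly(A) libraries. The authors deposited raw counts per gene, and a table of these counts divided by DESeq2 size factors was not used here. The submitters' processing notes name bcl2fastq 2.18.0.12, HISAT2 2.1.0, SAMtools 1.6, DESeq2 1.26.0 and GRCm38, and the counting program is not given in the sources used here. Of 21257 entries, 442 in 219 sets had identical counts, with at least 30 in total, and were reduced to 1 per set. Another 107, with fewer counts, repeated an identifier with the same counts and were dropped, which left 20927. Another 36 identifiers had entries with differing counts, which were kept apart. Names, positions and lengths came from GENCODE M21, with 268 entries unnamed. EdgeR 4.0.16 in R 4.3.3 (TMM, at least 10 counts in at least 3 libraries, no covariate) compared A178D with WT, with a Benjamini-Hochberg adjusted p under 0.05 as the threshold. Standard errors and 95% intervals belong to its log2 fold changes. The members and gene lists were chosen with earlier results of these data known. By rule the text names the 10 members, and of each other NAD list the called genes, or else the gene with the lowest p, and the most abundant per length. It also names called clock genes with *Arntl*, *Per2*, *Nr1d1* and *Dbp*, *Mmrn1*, the Y-linked genes, and of each cell type list the called and the most abundant genes. Alternatives were DESeq2 1.42.0, its size factors in edgeR, limma-voom 3.58.1, no filter, at least 10 counts in every library, a replicate block, offsets for length and GC content (mgcv 1.9.3), the table as deposited, counts halved, and leaving out each heart. The pipeline was tested on simulated data.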

Additional observations from a re-analysis of the deposited data

Results flagged for a closer look

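In 48 groups of 4 A178D values, 3 had 1 heart far from the others, and chance flags about 1 in 20. *Gpd1* was at 103.8 CPM in A178D replicate 2, against 111.3 to 112.4 CPM in the other A178D hearts, still above all WT hearts. *Dcn* was at 646.3 CPM in A178D replicate 1, against 554.9 to 562.3 CPM. *Col3a1* was at 323.8 CPM in A178D replicate 2, against 302.9 to 305.8 CPM. The WT group of 3 hearts is too small for this rule.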

How the results depend on the processing

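*Nampt* was called lower in all 9 alternatives run on all 7 libraries and in all 7 fits without 1 heart. Its log2 fold change ran from -0.77 to -0.51. The counts moved most with DESeq2, with the length and GC offsets and with single hearts, and little with limma-voom (148 higher). Called higher and lower were 290 and 375 genes with DESeq2, which included 321 of the 327 called by edgeR, and 228 and 282 with the length and GC offsets. Without single hearts they were 22 to 215 and 31 to 238. Of the 10 NAD genes, 2 were called with DESeq2 and 2 with the offsets, the second being *Nnt*, and 1 in each fit without 1 heart, and of the other NAD genes 0 to 3 without 1 heart. With the replicate block 124 genes were higher and 147 lower, and *Nampt* was at -0.66 (edgeR adjusted p = 0.00334). The *Gpd1*, *Mybpc3* and *Cnn1* calls were not made with the block, while *Nr1d1* was called, as it was with no filter. No WT heart is numbered 2, so A178D replicate 2 added nothing to the genotype difference in the block fit. The labels only share numbers, which were not taken to pair hearts. Over genes with a mean log2 CPM above 3, same-numbered hearts did not deviate together (correlations 0.06, -0.144 and -0.092). No WT heart correlated best with the A178D heart of its own number. *Arntl* and *Per2* kept their calls with the block (edgeR adjusted p = 0.000191 for each). Signs turned only for genes whose log2 fold change in the main fit was smaller in size than its standard error. With the offsets these were *Nmrk2* (-0.0247), *Slc29a1* (-0.0219), *Idh2* (-0.0674), *Naxe* (-0.0679) and *Dbp* (-0.070), with the replicate block *Nadk* (0.0032), *Idh2* (-0.0004) and *Dbp* (-0.0191), with limma-voom *Idh2* (-0.0003) and *Dbp* (-0.0287), and with no filter *Idh2* (-0.0029), *Dbp* (-0.0024) and *Dcn* (-0.0008). Without single hearts the values ran from -0.27 to 0.60 for *Nmrk2*, -0.0284 to 0.0235 for *Nadk*, -0.0633 to 0.0263 for *Parp1*, -0.0096 to 0.0736 for *Slc29a1*, -0.0405 to 0.0337 for *Idh2*, -0.12 to 0.13 for *Dbp*, -0.0675 to 0.0581 for *Dcn*, -0.30 to 0.14 for *Tnni2* and -0.48 to 0.62 for *Mmrn1*. With limma-voom *Mmrn1* was at 2.13 (standard error 1.09), against 0.11 in the main fit. The causes were not tested. Of the 48 named genes' values under alternatives, 670 kept direction and side of the threshold, 33 changed sign, 57 lost and 6 gained a call. Smaller differences than that of *Nampt* were not resolved in the low genes. The parts of depth and of the number of hearts in this were not tested.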
